A study of Mus musculus with 6 samples.

Results

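The p53 pathway was followed through 10 genes of mouse liver, chosen by name: Trp53, which encodes p53 itself, and its targets Mdm2, Ccng1, Cdkn1a, Sesn2, Trp53inp1, Phlda3, Eda2r, Bax and Bbc3. All 10 had a row among the 17975 genes of the table, and all 10 were among the 13805 genes with enough counts to test. RNA was sequenced from whole liver tissue of 3 Hom mice and 3 WT mice. Hom mice carry a homozygous floxed Nek7 allele (NEK7 fl/fl) and Cre under the albumin promoter (Alb-Cre), so the deletion is directed at hepatocytes. Whether the other cells of the liver kept the gene was not measured in these data. The floxed and Alb-Cre lines are on a C57BL/6 background and 1 liver per mouse was taken. Whether the WT mice carried the floxed allele or Cre is not given in the sources used here. The study states a general age range of young adult mice and the use of both sexes for its knockout experiments. It also describes liver fibrosis and inflammation in Hom mice aged several months, older than that range. Which age and sex apply to the 6 sequenced mice was not found in the text or labels used here.

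p53 is a transcription factor that is held at a low level by the ubiquitin ligase Mdm2 and is stabilised mainly at the protein level after DNA damage and other stress. Once active it binds pairs of short DNA elements and raises genes that halt the cell cycle (Cdkn1a), restrain growth signalling (Sesn2, Phlda3), start apoptosis (Bax, Bbc3) and switch p53 off again (Mdm2, Ccng1). In the liver the pathway is known for limiting the division of damaged hepatocytes, and the mRNA of its targets, rather than that of Trp53, is the usual readout of its activity.

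Of the 10 genes, 3 rose in Hom livers (Phlda3, Eda2r and Trp53, against 21.5% of all tested genes) and 3 fell (Cdkn1a, Trp53inp1 and Sesn2, against 20.1% of all tested genes), by edgeR at a Benjamini-Hochberg adjusted p under 0.05. Mdm2, Ccng1, Bax and Bbc3 did not pass. Log2 fold changes ran from −1.95 for Cdkn1a to 1.80 for Phlda3, with a median of 0.21 against −0.002 over all tested genes. The share of genes that passed, 6 of 10, stood beside 41.7% of all tested genes in either direction. With a change of at least 2-fold also required, 2 rose (Phlda3 and Eda2r, 13.2% of all tested genes) and 2 fell (Cdkn1a and Trp53inp1, 4.17% of all tested genes). Leaving out Hom replicate 1 or Hom replicate 2 left 1 of the 10 genes lower, Cdkn1a. Scaling by library size alone gave 6 higher and 1 lower.

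Promoter sequences from RefSeq (build GRCm38.p6) were read for 9 of the 10 genes, in windows of 250 bases before and 50 bases after each annotated start; Trp53inp1 had no entry. The p53 decamer was searched in them, a 10-letter element of 3 purines, C, 2 letters that are A or T, G and 3 pyrimidines, which reads the same on both strands. A paired decamer was 2 of these with at most 13 bases between them, so each paired match also counts as 2 single matches. Of all 32851 windows in the table, 8.36% held a decamer and 0.0731% held a pair. Among the 12 windows of the 9 genes, 5 held a decamer, those of Trp53, Mdm2, Ccng1, Bax and Cdkn1a, and 1 held a pair, that of Cdkn1a. The windows of Bbc3, Phlda3, Eda2r and Sesn2 held none of these letters, which says nothing of elements elsewhere in those genes. The bases before the start are printed for Cdkn1a, which fell most, and 50 bases around the match for the other 4, with the decamers in capitals.
Cdkn1a (chr17:29090729-29090978, plus strand): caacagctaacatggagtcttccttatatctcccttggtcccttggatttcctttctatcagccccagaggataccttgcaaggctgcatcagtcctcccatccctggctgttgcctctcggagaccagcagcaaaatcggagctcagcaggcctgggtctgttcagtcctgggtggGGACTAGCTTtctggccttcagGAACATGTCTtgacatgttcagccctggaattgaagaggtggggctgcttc
Trp53 (chr11:69580264-69580313, plus strand): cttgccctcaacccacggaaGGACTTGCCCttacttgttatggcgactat
Mdm2 (chr10:117710915-117710964, minus strand): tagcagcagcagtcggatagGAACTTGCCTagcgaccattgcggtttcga
Ccng1 (chr11:40755442-40755491, minus strand): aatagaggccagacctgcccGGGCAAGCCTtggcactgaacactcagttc
Bax (chr7:45467070-45467119, minus strand): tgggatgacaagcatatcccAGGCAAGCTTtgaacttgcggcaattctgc
In Cdkn1a the decamers began 73 and 51 bases before the upstream start, with 12 bases between them. The other annotated start of Cdkn1a lies 2790 bases further downstream, and its window held no decamer. In the other 4 genes the decamer began 75 (Trp53), 186 (Mdm2), 185 (Ccng1) and 201 (Bax) bases before the start. Genes with a decamer near the start included 1 that rose, 1 that fell and 3 that did not pass.

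The deposited counts are estimated reads per gene, and they summed to between 19349418 and 19730236 per liver. The levels given are CPM, counts scaled to a common library total after TMM correction for library composition, and are listed in the order of replicates 1, 2 and 3; the factors were 0.806 to 0.924 in WT and 1.09 to 1.23 in Hom livers. Without TMM factors the median log2 fold change of all tested genes moved from −0.002 to 0.45, so each change is read relative to the bulk of genes. The targeted gene, Nek7, had a mean of 65.2 ± 3.36 CPM among WT and 16.4 ± 1.83 CPM among Hom livers (SD, n = 3 mice each), and every Hom liver lay below every WT liver. Hom replicate 1 stood apart in having no count of the Y-linked genes Ddx3y and Kdm5d, of which each of the other 5 livers had at least 243. For a single gene, 3 mice against 3 cannot give an exact two-sided permutation p under 0.1, the value of each gene whose groups did not overlap.

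Whole liver also holds other cells, and marker genes of these cells differed between the groups. All 10 cholangiocyte markers were higher (summed level 66 to 103 CPM in WT and 675 to 911 CPM in Hom livers), and 9 of 12 hepatocyte markers were lower (158000 to 189000 CPM against 66000 to 84300 CPM). Stellate cell markers were higher for 5 of 10 and lower for 1 (185 to 204 CPM against 485 to 579 CPM). Endothelial markers were lower for 5 of 10 (226 to 309 CPM against 169 to 170 CPM). Macrophage markers were higher for 2 of 10 (Lyz2 and Cd68) and lower for 2 (Timd4 and Clec4f), with overlapping sums (239 to 597 CPM against 326 to 446 CPM). Of 7 tested lymphocyte markers 1 was higher, also with overlapping sums (6.54 to 10.4 CPM against 8.96 to 15.4 CPM). Over all tested genes 21.5% were higher and 20.1% lower. No marker list had a gene at 0 in all 6 livers. Fewer cells of a type and less RNA per cell cannot be told apart in bulk tissue, and the part of these shifts in the results that follow was not tested.

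Trp53, the gene of p53, was at 23.2, 22.3 and 22.5 CPM in WT livers and at 28.4, 36.2 and 35.0 CPM in Hom livers. The WT livers lay close together, and all 3 Hom livers lay above them. The mean rose from 22.7 ± 0.453 to 33.2 ± 4.20 CPM (SD, n = 3 mice), or 1.47-fold (log2 fold change 0.55, standard error 0.11, adjusted p = 0.00734, edgeR). Among all tested genes 24.2% had a higher log2 fold change. The mouse genome also holds a Trp53 pseudogene, Trp53-ps, and how the counting assigned reads between them was not tested.

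Mdm2, the ligase that marks p53 for degradation, was at 38.3, 37.2 and 33.3 CPM in WT and at 32.9, 36.3 and 34.0 CPM in Hom livers. The groups overlapped, and the log2 fold change of −0.08 (95% interval −0.28 to 0.12, adjusted p = 0.498, edgeR) did not pass. This interval holds neither a 2-fold rise nor a 2-fold fall. With library size alone in place of TMM the sign turned (log2 fold change 0.38, adjusted p = 0.0418, edgeR), a value under the median of all genes in that scaling.

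Ccng1 encodes cyclin G1, which brings a phosphatase to Mdm2 and so takes part in the feedback on p53. It was at 33.1, 39.5 and 39.3 CPM in WT and at 42.0, 40.5 and 40.5 CPM in Hom livers. All 3 Hom livers lay above the WT livers, as for 28.7% of all tested genes, but by a small margin (log2 fold change 0.14, 95% interval −0.08 to 0.35, adjusted p = 0.256, edgeR). With library size alone it passed (0.60, adjusted p = 0.00176, edgeR). Without WT replicate 1, the lowest, the log2 fold change was 0.05.

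**Figure D1:**
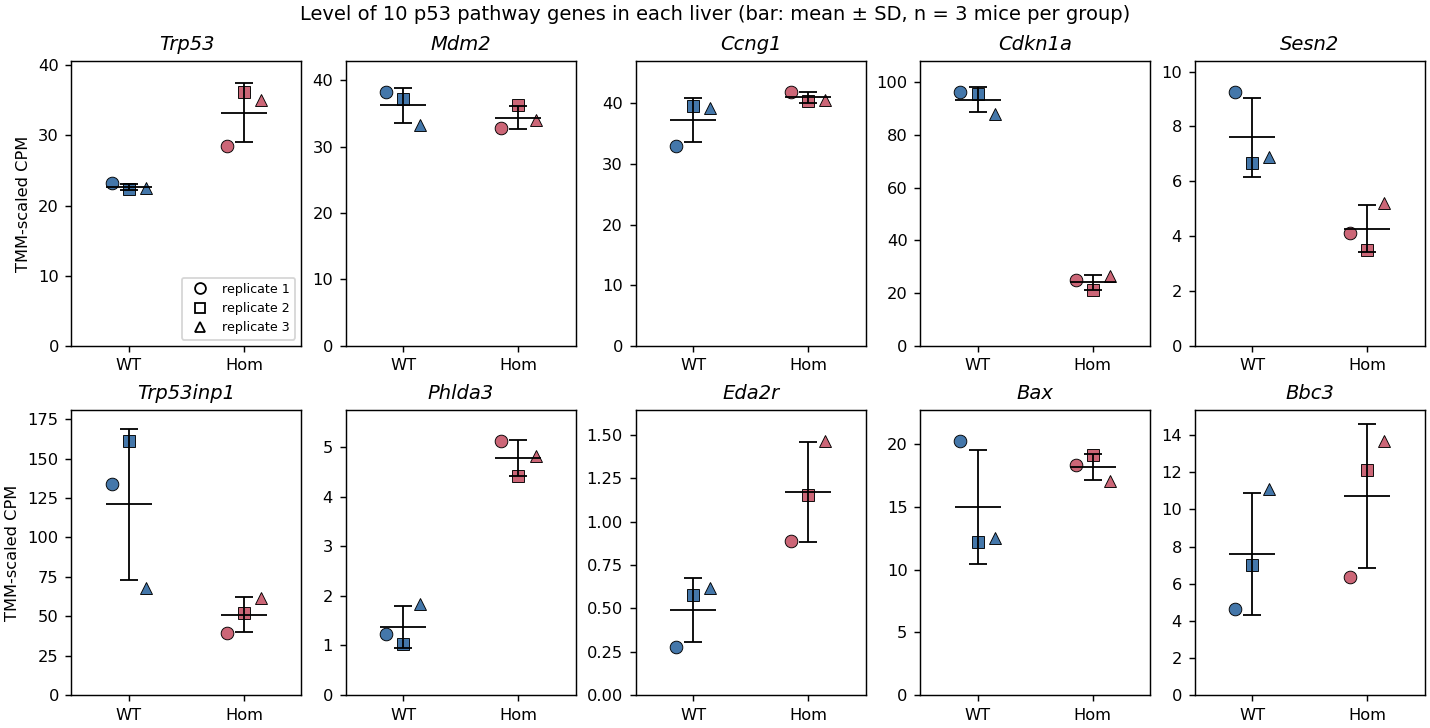
Level of each of the 10 genes in each liver, in TMM-scaled CPM on linear axes that start at 0, for WT (blue) and Hom (red) mice; symbols mark the replicate, and bars the mean ± SD (n = 3 mice). The groups are apart for Trp53, Cdkn1a, Sesn2, Trp53inp1, Phlda3 and Eda2r and narrowly for Ccng1, and overlap for Mdm2, Bax and Bbc3.

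Cdkn1a encodes p21, the inhibitor of cyclin-dependent kinases through which p53 arrests the cell cycle. It was at 96.5, 95.8 and 88.2 CPM in WT livers and at 25.1, 21.03 and 26.5 CPM in Hom livers. The highest Hom liver lay far under the lowest WT liver. The mean fell from 93.5 ± 4.61 to 24.2 ± 2.86 CPM (SD, n = 3 mice), a level 3.86-fold lower (log2 fold change −1.95, standard error 0.11, adjusted p = 1.59e-04, edgeR). Of all tested genes 1.45% had a lower log2 fold change. The gene passed in the same direction in each alternative tried, with log2 fold changes from −2.02 to −1.50, the latter with library size alone.

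Sesn2 encodes sestrin 2, a stress-induced inhibitor of the growth kinase complex mTORC1. It was at 9.27, 6.67 and 6.88 CPM in WT and at 4.11, 3.50 and 5.22 CPM in Hom livers, with all Hom livers below. It fell 1.78-fold (log2 fold change −0.83, standard error 0.22, adjusted p = 0.0210, edgeR). It no longer passed without Hom replicate 1 (−0.80, adjusted p = 0.0524), without Hom replicate 2 (−0.70, adjusted p = 0.0692) or with library size alone (−0.39, adjusted p = 0.227, all by edgeR).

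Trp53inp1 encodes a stress-induced nuclear protein that takes part in p53-dependent cell death and in autophagy. In WT livers it varied widely, with 133.7, 161.4 and 68.2 CPM, against 39.2, 51.9 and 61.4 CPM in Hom livers. WT replicate 3 lay near the highest Hom liver, and the groups did not overlap. The gene fell 2.38-fold (log2 fold change −1.25, standard error 0.32, adjusted p = 0.0196, edgeR). It did not pass without WT replicate 2 (−0.996, adjusted p = 0.0648), without Hom replicate 1 (−1.10, adjusted p = 0.0544), without Hom replicate 2 (−1.27, adjusted p = 0.0602) or with library size alone (−0.79, adjusted p = 0.0793, all by edgeR).

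Cdkn1a, Sesn2 and Trp53inp1 thus lay lower in each Hom liver than in each WT liver, an arrangement found for 27.0% of all tested genes. Of these 3, Cdkn1a had the smallest spread between livers of a group in relation to its change.

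Phlda3 encodes a small lipid-binding protein that keeps the kinase AKT from the membrane. It was at 1.23, 1.03 and 1.84 CPM in WT and at 5.13, 4.41 and 4.83 CPM in Hom livers, from 16 to 30 counts in WT and 107 to 112 counts in Hom livers. The groups lay far apart, and the Hom livers close together. It rose 3.49-fold (log2 fold change 1.80, standard error 0.26, adjusted p = 0.00246, edgeR) and passed in each alternative, with log2 fold changes from 1.64 to 2.25. Among all tested genes 6.55% had a higher log2 fold change.

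Eda2r encodes a receptor of the tumour necrosis factor receptor family that binds ectodysplasin A2, and lies on the X chromosome. It was the lowest of the 10 genes, with 5, 9 and 10 counts in WT and 19, 28 and 34 counts in Hom livers. These are 0.279, 0.577 and 0.614 CPM in WT and 0.887, 1.15 and 1.47 CPM in Hom livers, again without overlap. The log2 fold change was 1.26 (standard error 0.40, 2.39-fold, adjusted p = 0.0411, edgeR). The call was lost without WT replicate 1 (0.96, adjusted p = 0.0938), WT replicate 2 (1.39, adjusted p = 0.0855), WT replicate 3 (1.45, adjusted p = 0.0594), Hom replicate 2 (1.26, adjusted p = 0.115) or Hom replicate 3 (1.06, adjusted p = 0.157, all by edgeR), while the direction stayed. It was also lost with DESeq2 (adjusted p = 0.0629), without a filter on low counts (0.0637), with the replicate number as a block (0.0592) and after a correction for gene length (0.0523), so that 3 of 12 alternatives kept it. Without Hom replicate 1, the liver with no count of the Y-linked genes, it passed (1.42, adjusted p = 0.0446, edgeR).

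Bax and Bbc3 carry the apoptotic arm: Bax permeabilises the outer mitochondrial membrane, and Bbc3 encodes PUMA, which frees Bax from its inhibitors. Bax was at 20.3, 12.2 and 12.5 CPM in WT and at 18.3, 19.1 and 17.1 CPM in Hom livers. WT replicate 1 lay above all Hom livers and the other WT livers below them. The log2 fold change of 0.27 did not pass (95% interval −0.21 to 0.75, adjusted p = 0.311, edgeR). Without WT replicate 1 it passed, with a log2 fold change of 0.55 (adjusted p = 0.00878, edgeR). The annotation of GRCm38 places a further protein-coding gene model, Gm45808, on the same strand across Bax.

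Bbc3 was at 4.64, 6.99 and 11.1 CPM in WT and at 6.35, 12.1 and 13.7 CPM in Hom livers. The levels overlapped, and replicate 1 was the lowest liver of each group. The log2 fold change was 0.50 with a 95% interval from −0.40 to 1.41 (adjusted p = 0.325, edgeR). With this spread a rise of over 2-fold could not be told from none.

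**Figure D2:**
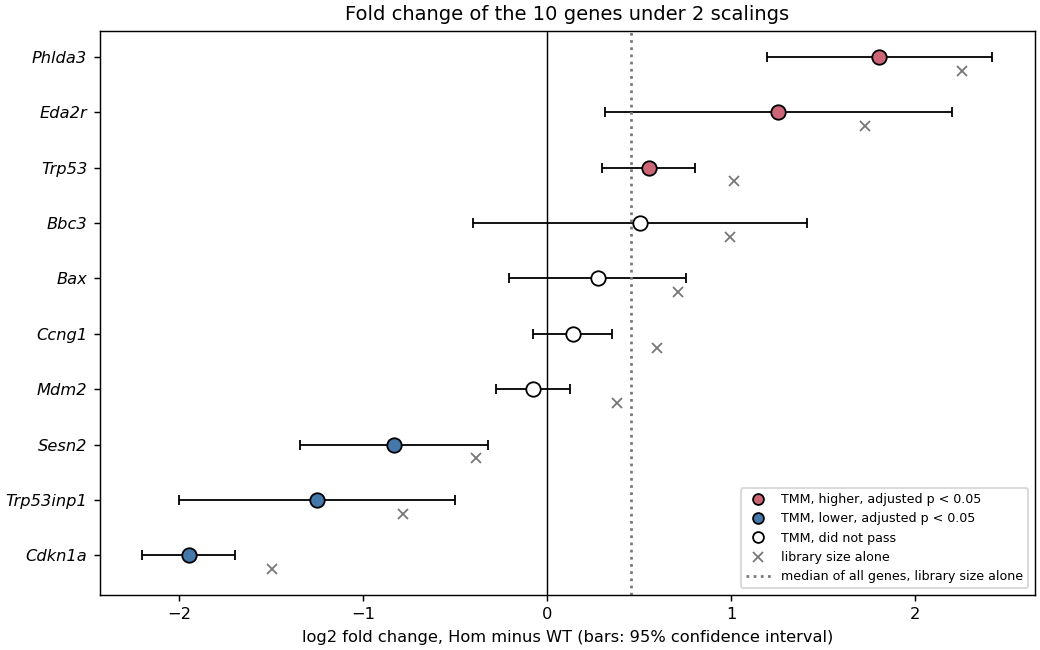
Log2 fold change (Hom minus WT) of the 10 genes. Circles with 95% confidence intervals are the edgeR fit with TMM factors (red higher, blue lower, white did not pass), crosses are library size alone, and the dotted line is the median of all genes under library size alone (0.45). Cdkn1a, Trp53inp1 and Sesn2 lie left of 0 in both scalings, while Mdm2 lies left of 0 with TMM and right of 0 without.

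Because each liver gives both values, the ratio of a pair of genes within a liver does not depend on the scaling. The pairs were chosen after the values were seen. The ratio of Ccng1 to Cdkn1a estimated counts was 0.343, 0.413 and 0.445 in WT livers and 1.67, 1.93 and 1.53 in Hom livers. Counts are not scaled for length, so these ratios compare livers and give no order of the genes' levels. In TPM, which are per length, Cdkn1a stayed above Ccng1 in Hom replicates 1 (27.43 and 24.9 TPM) and 3 (32.21 and 26.68 TPM) and lay below it in Hom replicate 2 (26.43 and 27.62 TPM). The ratio of Phlda3 to Cdkn1a was 0.0107 to 0.0209 in WT and 0.182 to 0.210 in Hom livers. That of Bax to Cdkn1a was 0.127 to 0.210 in WT and 0.643 to 0.908 in Hom livers. The ratio of Mdm2 to Trp53 was 1.65, 1.67 and 1.48 in WT and 1.16, 1.00 and 0.972 in Hom livers. In each of these pairs the 3 Hom livers lay on one side of the 3 WT livers. Each pair holds Cdkn1a or Trp53, whose groups already did not overlap alone, so the pairs are not separate results. The share of other gene pairs with such a gap was not computed.

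**Figure D3:**
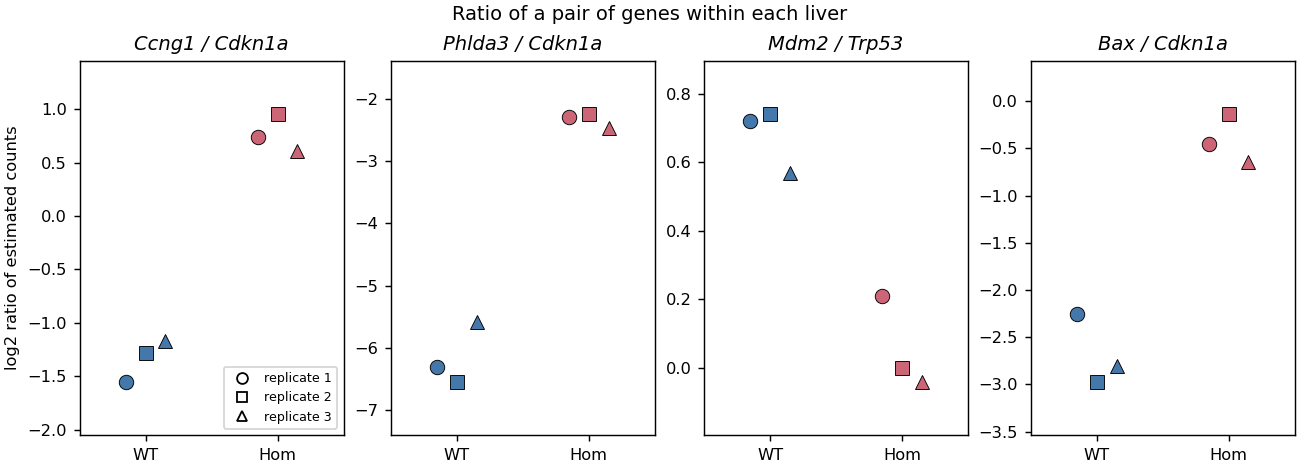
Log2 ratio of the estimated counts of a pair of genes within each liver, for WT (blue) and Hom (red) mice, with symbols for the replicate and an axis of its own in each panel. For Ccng1 to Cdkn1a the WT livers lie between −1.55 and −1.17 and the Hom livers between 0.61 and 0.95.

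For the order of the 10 genes, their levels were compared per length, in the deposited TPM values, which scale for transcript length and depth, and within a group. In WT livers Cdkn1a was the highest of the 10 genes at 72.5 ± 10.7 TPM (SD, n = 3 mice), and the livers did not overlap with those of the next gene. Trp53inp1 (32.7 ± 13.4 TPM), Bax (27.0 ± 11.6 TPM), Trp53 (18.7 ± 2.52 TPM), Mdm2 (16.4 ± 2.70 TPM) and Ccng1 (15.5 ± 0.147 TPM) followed, and each of these overlapped with its neighbour. Bbc3 (6.39 ± 2.34 TPM) and Sesn2 (4.27 ± 1.33 TPM) lay below them and overlapped, and Phlda3 (1.38 ± 0.396 TPM) and Eda2r (0.123 ± 0.0404 TPM) were lowest. In Hom livers Bax (49.1 ± 4.78 TPM) and Trp53 (42.2 ± 8.05 TPM) came first and overlapped, and Cdkn1a was at position 3 with 28.7 ± 3.09 TPM. Ccng1, Mdm2, Trp53inp1 and Bbc3 came next, each overlapping with its neighbour. Phlda3 (7.47 ± 0.215 TPM) lay above Sesn2 (3.63 ± 0.780 TPM) without overlap, the reverse of their order in WT livers, and Eda2r remained lowest at 0.537 ± 0.251 TPM.

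A further 45 p53 targets were listed by role, and 44 of them had a row and were tested; Ptprv was not analysed here. Of the 44, 13 rose and 6 fell, with a median log2 fold change of 0.19, against −0.002 over all tested genes and the 21.5% and 20.1% of all tested genes that were higher and lower. The number lower was 3 without Hom replicate 2 and 3 without Hom replicate 3. Library size alone gave 26 higher and 2 lower.

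Among 8 tested targets of the cell cycle and its checkpoints, 4 rose, against 21.5% of all tested genes. Btg2, an antiproliferative gene, was at 18.9 ± 4.73 CPM in WT and 40.4 ± 7.67 CPM in Hom livers (SD, n = 3 mice). Gadd45a, a growth arrest and DNA damage gene, was at 1.78 ± 0.364 and 5.28 ± 1.05 CPM. The polo-like kinase gene Plk2 was at 7.12 ± 1.13 and 17.9 ± 3.75 CPM. Ckap2, which encodes a spindle protein, was at 0.293 ± 0.202 and 1.95 ± 0.951 CPM. In this order, the log2 fold changes of the 4 genes were 1.10, 1.57, 1.33 and 2.69. So the arrest genes Btg2 and Gadd45a rose in the same livers in which Cdkn1a fell, while 4 of the 8 tested genes of this class did not pass. Ckap2 did not pass without Hom replicate 2 (adjusted p = 0.0559, edgeR).

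Of 11 apoptosis targets, 5 rose and 1 fell, against 21.5% and 20.1% of all tested genes. Apaf1, the scaffold of the apoptosome, went from 2.49 ± 0.455 to 7.81 ± 1.43 CPM (log2 fold change 1.64, adjusted p = 0.00187, edgeR). The death receptor gene Tnfrsf10b went from 2.50 ± 0.287 to 5.70 ± 0.936 CPM (log2 fold change 1.19, adjusted p = 0.00447, edgeR). Dram1, a lysosomal regulator of autophagy, had a log2 fold change of 1.62, Pmaip1, which encodes the BH3-only protein NOXA, one of 1.2, and the death receptor gene Fas one of 0.60 (adjusted p of 0.0208, 0.0419 and 0.0284 by edgeR). These 3 lost the call when single livers were left out, Dram1 for Hom replicates 2 and 3, Pmaip1 for each liver but WT replicate 1, and Fas for each liver but WT replicate 3, with adjusted p up to 0.0794, 0.129 and 0.0822. Ei24, a protein of the endoplasmic reticulum, was the one lower gene (log2 fold change −0.32, adjusted p = 0.0455, edgeR). Its sign turned with library size alone (0.13), and it did not pass without WT replicates 2 or 3 or Hom replicates 2 or 3, each left out singly (adjusted p from 0.106 to 0.139, edgeR).

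Of 11 metabolic targets 2 were higher and 3 lower, shares near the 21.5% and 20.1% of all tested genes. Lpin1, which encodes a phosphatidate phosphatase of lipid synthesis and a coactivator of fatty acid oxidation genes, was at 526, 971 and 724 CPM in WT and at 48.2, 129 and 59.3 CPM in Hom livers. The lowest WT liver was thus far above the highest Hom liver, and the level was 9.41-fold lower (log2 fold change −3.23, standard error 0.43, adjusted p = 0.00188, edgeR). Pank1, for coenzyme A synthesis (log2 fold change −0.86), and Fdxr, the ferredoxin reductase of mitochondria (−0.48), also fell. The Fdxr call was lost without any single liver other than WT replicate 1 (adjusted p from 0.0966 to 0.126, edgeR) and with library size alone (−0.01, adjusted p = 0.955, edgeR). Sat1, for polyamine catabolism, rose by 0.93 and Cpt1c, a carnitine palmitoyltransferase family member mostly known from brain, by 2.05 on the log2 scale.

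Among the targets outside these roles, Rap2b, a small GTPase gene, rose by 1.28 on the log2 scale. Of 6 DNA repair targets, Rps27l fell by 0.48, and of 4 feedback genes the ubiquitin ligase gene Cop1 fell by 0.34 on the log2 scale, the latter with its sign turned under library size alone. With that scaling Rps27l was at −0.02 and did not pass (adjusted p = 0.865, edgeR), nor did it pass after a correction for gene length (−0.20, adjusted p = 0.0566, edgeR). Cop1 did not pass without Hom replicate 2 (adjusted p = 0.0625, edgeR) or Hom replicate 3 (adjusted p = 0.0552, edgeR). No other gene of these 2 lists passed, while 20.1% of all tested genes were lower.

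**Figure D4:**
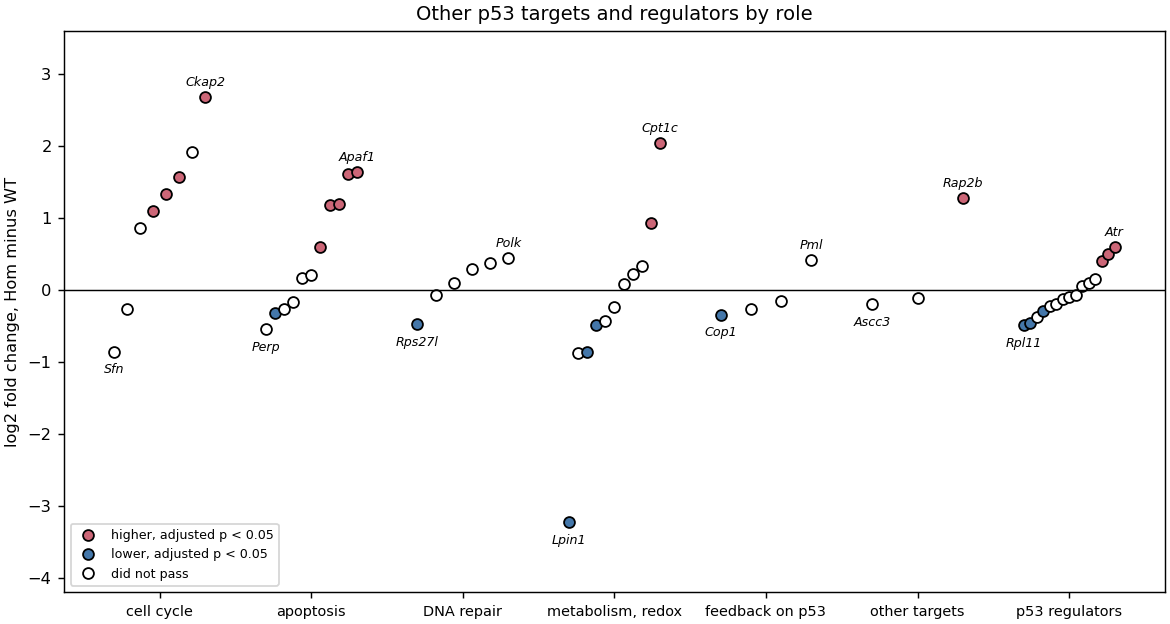
Log2 fold change (Hom minus WT) of the other p53 targets by role and of p53 regulators, 1 circle per gene drawn, red for higher, blue for lower and white for genes that did not pass; the highest and lowest drawn of each class are named. Values run from −3.23 for Lpin1 to 2.69 for Ckap2, 1 target is not drawn, and the regulators lie between −0.49 and 0.60.

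Genes that act on p53 changed little in size. Of 16 listed, 15 were tested; 3 were higher and 3 lower, near the 21.5% and 20.1% of all tested genes, so the counts are no result about the regulators. Their log2 fold changes lay between −0.49 and 0.60 (median −0.09). Those higher were the damage kinase gene Atr (0.60), Trp53bp1, a repair scaffold (0.50), and the acetyltransferase gene Kat5 (0.40). Those lower were Rpl11, a ribosomal protein that can bind Mdm2 (−0.49), the coactivator gene Crebbp (−0.46) and Usp7, which removes ubiquitin from p53 and Mdm2 (−0.29). Mdm4, the partner of Mdm2 that inhibits p53, was at 47.5, 48.7 and 44.7 CPM in WT and at 46.3, 52.2 and 51.8 CPM in Hom livers and did not pass (log2 fold change 0.09, adjusted p = 0.382, edgeR). Cdkn2a, the locus of the Mdm2 inhibitor ARF, stayed at 0.302 CPM or less in each liver and was not tested. The p53 relatives Trp63 and Trp73 were not tested either. Trp63 was at 4.18 CPM in WT replicate 3 and at 1.03 CPM or less in the other livers. The counts of regulators rest on few livers: without WT replicate 2, 1 was higher and 1 lower, and without Hom replicate 3, 1 was lower. Without Hom replicate 2 or Hom replicate 3, edgeR called 0 higher after adjustment, with 3 and 2 at an unadjusted p under 0.05, while DESeq2 on all livers gave 3.

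Genes of the cell cycle that p53 represses by way of p21 and the DREAM complex were mostly higher in Hom livers. Whether this is tied to the lower Cdkn1a or to the shifts in cell type markers was not tested. Of 14 listed, 13 were tested and 11 rose (median log2 fold change 1.99), against 21.5% of all tested genes. Their summed level was 9.69 to 22.2 CPM in WT and 35.5 to 73.3 CPM in Hom livers. The 2 others, E2f1 (log2 fold change 0.36) and Mybl2 (−0.55), did not pass. The number that rose was 4 without Hom replicate 2 and 6 without Hom replicate 3, and 6 with the replicate number as a block.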

How the data were processed

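Liver RNA of 3 WT and 3 Hom mice was sequenced on the DNBSEQ platform. The submitters' processing notes name HISAT2 2.0.4, Bowtie2 2.2.5, RSEM 1.2.12 and the build mm9; strandedness and the counting settings are not given in the sources used here. The authors deposited estimated counts, which are not scaled between livers, together with FPKM and TPM. The deposited FPKM values served only to recover gene length, and the authors' TPM values only to order genes within a group. The authors' mean columns carry crossed group names (for all 17975 genes the WT-named mean equals the Hom mean within 0.01 counts) and were not used.

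Rounded counts were tested by the quasi-likelihood functions of edgeR 4.0.16 under R 4.3.3 (filterByExpr, TMM, glmQLFit, glmQLFTest), with Benjamini-Hochberg adjustment over 13805 genes and a threshold of 0.05. Standard errors were derived from each fold change and its F statistic, and 95% intervals from these with the degrees of freedom of the fit. The procedure was tested on simulated data. No pair of livers in a group was a repeat of 1 library (the lowest chi-square, divided by its degrees of freedom, was 23.8). Counting error limits mainly Eda2r and other genes under 1 CPM.

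Named genes were Nek7, the 10 genes, Mdm4, Cdkn2a and, from the lists of other targets and regulators, genes that passed and averaged at least 1 CPM, at most the 4 highest and 4 lowest by fold change in a class. Other genes, such as E2f1, Mybl2, Trp63, Trp73 and the macrophage markers, were named after their values were seen. The values of 1 listed target are not reported here; it stays in the counts of its list. The 10 genes and the lists were chosen with earlier results of these data known. Alternatives were DESeq2 1.42.0, library size alone, upper-quartile factors, a minimum of 10 counts per liver, unfiltered genes, a block on replicate number, omission of each liver, a minimum change of 2-fold, and a loess correction for gene length.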

Additional observations from a re-analysis of the deposited data

How the results depend on the processing

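Cdkn1a, Phlda3 and Trp53 kept their direction and their side of the threshold in all 13 alternative fits; a minimum change of 2-fold leaves out Trp53 and Sesn2. Over the 10 genes, 108 of 129 comparisons with an alternative kept both, 16 lost the call, 3 gained it and 2 changed sign. Library size alone gave 6 of the 10 genes higher and 1 lower, and 26 other targets higher and 2 lower. It gave 6 regulators higher and 0 lower (0 also at an unadjusted p under 0.05 from edgeR), and 6574 genes higher and 642 lower over all. DESeq2, run only with its own scaling, gave 3 regulators lower. Under library size alone Mdm2 turned to 0.38, Ei24 to 0.13, Cop1 to 0.12 and Usp7 to 0.16. These follow from its shift of the median of all genes to 0.45. Mdm2 was at 0.014 with upper-quartile factors, which gave 3477 genes higher and 2060 lower. Mdm4 was at −0.015 after the length correction, which gave 5 regulators lower. The causes of the latter were not tested. A minimum change of 2-fold left 1 other target lower, 0 regulators in either direction (0 also at an unadjusted p under 0.05), and 1825 genes higher and 575 lower over all. With at least 10 counts in every liver, 5 of the DREAM-repressed genes were left and 3 were higher.

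With 1 liver left out, 2 to 3 of the 10 genes were higher and 1 to 3 lower, 3 to 6 other targets were lower, 0 to 3 regulators were higher and 1 to 3 lower, 4 to 12 DREAM-repressed genes were higher, and 1767 to 2750 genes were lower over all.

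With the replicate number as a block, 2 of the 10 genes were higher and 3 lower, 6 DREAM-repressed genes were higher, and 2383 genes were higher and 2214 lower over all. Same-numbered livers are different mice and did not deviate together (correlations of −0.11, −0.056 and −0.049, and 0 of 6 livers correlated best with its own number), so the numbers do not pair the livers.

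Few counts limit Eda2r, with 5 to 34 counts per liver.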
